A study of Mus musculus with 16 samples.

Results

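The complement components and regulators that islets can make locally were 9 genes chosen by symbol, *C3*, *Cfb*, *C4b*, *C2*, *C1ra*, *C1s1*, *Serping1*, *Cd55* and *Cfi*, of the 52636 genes counted. The macrophage C1q genes were left outside the choice. Of the 9 members, 8 passed a filter on low counts and were tested, and *C1s1* did not pass and was not. RNA was sequenced from islets of 12-week-old male mice (strain C57BL/6JRj in the sample labels, C57BL/6NRj in the study's methods), which hold the insulin-secreting beta cells together with other endocrine cells, vessels and resident macrophages. The islets were cultured for 10 days in 4 conditions: control without additions, 50 pg/mL recombinant mouse IL-1β, a pro-inflammatory cytokine, 0.2 mM sodium butyrate, a product of fiber fermentation by the gut microbiota, or both agents together. All islets shared the same medium with human serum, renewed on day 5. Each condition had 4 independent experiments (16 libraries), with 500 islets from a pool of several mice in each library, so that n counts experiments and not mice.

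Complement is a cascade of plasma proteins that tags particles and cells for removal and can pierce their membranes. The classical route starts when C1q binds its target and the proteases C1r and C1s cleave C4 and C2, the alternative route runs through factor B, and both form enzymes that cleave C3, the central component. Inhibitors stop the cascade at each step: the C1 inhibitor encoded by *Serping1* blocks C1r and C1s, CD55 takes the C3-cleaving enzymes apart on cell surfaces, and factor I degrades C3b and C4b. The liver makes most plasma complement, and many other tissues, islets among them, transcribe parts of it under inflammatory cytokines.

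Libraries held 18635943 to 25955943 counts (median 22184715). Expression is given as CPM, the counts of a gene scaled to the effective size of its library (TMM) and expressed per 1000000, and a gene was called at a false discovery rate (FDR) under 0.01 in the quasi-likelihood test of edgeR. The 8 beta cell markers that define islets summed to 213000 to 236000 CPM in control, 222000 to 261000 with butyrate, 137000 to 178000 with IL-1β and 137000 to 169000 with both agents. Against control, 7 of these 8 were called lower with IL-1β and 1 higher (median log2 fold change -0.57). In bulk RNA, fewer cells of a type and less RNA per cell cannot be told apart. Markers of other cell types also moved with IL-1β: 11 of 12 macrophage markers were called higher and 1 lower against control, and their summed level was 134 to 147 CPM in control and 194 to 243 CPM with IL-1β. Leaving out the 3 C1q genes, the macrophage sum was 17.5 to 26.9 CPM in control, 14.5 to 23.7 with butyrate, 72.3 to 122 with IL-1β and 32.7 to 68.4 with both agents, and it was highest in IL-1β replicate 4. Of 6 acinar markers, 4 were tested and 2 called higher with IL-1β, from a sum of 0.5 to 2.87 CPM in control to 2.9 to 14.6. Of 5 duct markers, 4 were tested and 2 called higher, from 327 to 356 CPM to 375 to 440. Of the 7 fibroblast and stellate cell markers, 0 were called higher and 1 lower with IL-1β by edgeR (sum 7.37 to 13.3 CPM in control, 4.45 to 12.7 with IL-1β). Of 6 endothelial markers, 5 were tested, with 1 called higher and 0 lower. Of 5 alpha cell markers, 0 were called higher and 2 lower, and of 3 delta cell markers 0 were called by edgeR. The 5 T cell markers summed to 1.91 to 3.46 CPM in control and 0.982 to 2.24 with IL-1β; 2 of them were tested and neither was called by edgeR, and *Cd3d* and *Cd8a* had at most 3 counts in any library. The part of these cell types in the results on complement was not tested.

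The first question was how IL-1β alone changed the members. All 8 tested members had a higher mean with IL-1β than in control, with a median log2 fold change of 2.88 against -0.03 over all genes tested. Of these, 7 rose, where 11.2% of all tested genes were called higher in this comparison, and 0 were called lower, where 6.59% of all tested genes were. *Cd55* was the tested member that missed the threshold. *Cfb* and *C4b* passed the filter on low counts only through libraries with IL-1β, so the direction of their change was largely fixed by the filter. Their part in these counts and in the median is therefore no evidence of a rise among the members. In each of the 8 tested members, the lowest IL-1β library lay above the highest control library. The share of all tested genes that separated in this way was not determined, so this is a description only.

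*C3* (chr17:57203970-57228136, GRCm38, minus strand), the component on which all routes meet, held 273, 418, 356 and 376 counts in the control libraries and 2894, 5092, 4352 and 6707 with IL-1β. On the CPM scale these were 12.7, 17.4, 17.0 and 16.1 in control and 150, 248, 226 and 242 with IL-1β. IL-1β replicate 1 was the lowest of its condition and still far above every control library. *C3* rose 13.7-fold (log2 fold change 3.77, SE 0.19, 95% confidence interval 3.37 to 4.17, edgeR FDR = 3.8e-09). Its mean level was 15.8 ± 2.1 CPM in control and 216 ± 45 CPM with IL-1β (SD, n = 4).

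*Cfb* (chr17:34856374-34862518, minus strand) encodes factor B, the protease of the alternative route. Control libraries held 2, 4, 2 and 0 counts, while IL-1β libraries held 254, 422, 327 and 568. In CPM the IL-1β libraries were 13.1, 20.5, 16.9 and 20.5, and no control library was above 0.167. The gene was thus close to undetected in control islets and rose to 17.8 ± 3.5 CPM (SD, n = 4), with a log2 fold change of 7.56 (SE 0.34, 95% confidence interval 6.84 to 8.28, edgeR FDR = 9.3e-12). Because control held only 8 counts in all, the ratio of the summed counts (1571 with IL-1β) is the plainer measure, and it was 203 (exact 95% interval 103 to 470, counting error only). Of the exon bases of *Cfb*, 2246 of 2825 lie also in the read-through gene *Gm20547*, which joins *C2* and *Cfb* on the same strand and had 0 counts in all 16 libraries (3 counts would be 0.108 to 0.157 CPM). Whether reads in the shared bases were left out of the table was not tested. Summed with *C2* and *Gm20547*, the log2 fold change was 4.09 (edgeR FDR = 1e-13).

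*C4b* (chr17:34728380-34743882, minus strand) encodes C4, which is split by the C1 proteases. It was scarce, with 1, 1, 0 and 8 counts in control and 14, 32, 32 and 55 with IL-1β. Control replicate 4 stood apart from the other three control libraries and was still below every IL-1β library. Without it, the log2 fold change of *C4b* with IL-1β was 5.4, in place of the value over all libraries that follows, and that with both agents against control was 4.59 in place of 2.88. *C4b* rose with a log2 fold change of 3.69 (SE 0.54, 95% confidence interval 2.58 to 4.80, edgeR FDR = 8.1e-06), and the ratio of summed counts was 13.7 (exact 95% interval 7.24 to 29.3). The neighbouring copy *C4a*, which shares 35.2% of the 50-base words of the longest *C4b* transcript, had more counts (59 to 75 in control, 64 to 107 with IL-1β) and was not called (log2 fold change 0.41, edgeR FDR = 0.039). With both copies summed, the log2 fold change was 0.82 (edgeR FDR = 1.3e-05), so the rise of the summed counts was smaller than that of *C4b* alone.

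*C2* (chr17:34862604-34898265, minus strand), the protease that pairs with C4, was measured at 0.7, 1.29, 1.43 and 1.28 CPM in control and at 3.46, 3.65, 4.09 and 4.22 CPM with IL-1β. The 4 IL-1β libraries lay close together and the groups did not overlap. *C2* rose 3.27-fold (log2 fold change 1.71, SE 0.18, edgeR FDR = 1.9e-08). It also shares 1656 of its 3872 exon bases with *Gm20547*.

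Among the C1 proteases, *C1ra* (chr6:124512405-124523443, plus strand) had 18, 11, 7 and 15 counts in control and 76, 66, 58 and 107 with IL-1β. It rose 6.13-fold (log2 fold change 2.62, SE 0.23, 95% confidence interval 2.14 to 3.09, edgeR FDR = 8.5e-10). Its copy *C1rb* shares 48.0% of the 50-base words of the *C1ra* transcript and had at most 1 count in any library. *C1s1* (chr6:124530345-124542359, minus strand), the partner protease, had 2, 1, 0 and 3 counts in control and 4, 5, 2 and 5 with IL-1β. The ratio of its summed counts, 16 to 6, was 2.75 with an exact 95% interval of 1.02 to 8.59 that covers counting error only, so a change beyond the spread of experiments was not detectable at this depth.

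*Serping1* (chr2:84765387-84775444, minus strand), encoding the C1 inhibitor, was the most abundant member in control islets. Control libraries held 31.9, 30.6, 32.5 and 29.1 CPM, and IL-1β libraries 221, 296, 252 and 316 CPM. The control values hardly varied, and the IL-1β values were spread over a wider range with replicate 4 highest. *Serping1* rose 8.75-fold (log2 fold change 3.13, SE 0.13, 95% confidence interval 2.85 to 3.41, edgeR FDR = 1.7e-10).

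*Cfi* (chr3:129835884-129875332, plus strand), encoding factor I, was at 1.63, 2.25, 1.77 and 1.75 CPM in control and 3.98, 3.99, 3.37 and 3.07 CPM with IL-1β. It rose 1.93-fold (log2 fold change 0.95, SE 0.15, edgeR FDR = 1.6e-05), the smallest rise among the called members. *Cd55* (chr1:130439027-130462744, minus strand), the inhibitor at the cell surface, had 9, 18, 10 and 22 counts in control and 23, 41, 19 and 29 with IL-1β. Its log2 fold change was 0.98 (SE 0.30, 95% confidence interval 0.37 to 1.59), close in size to that of *Cfi*, with an edgeR FDR of 0.014. The call depended on the setting, since *Cd55* had an edgeR FDR of 0.0054 without the filter on low counts and of 0.0068 without control replicate 4.

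**Figure D1:**
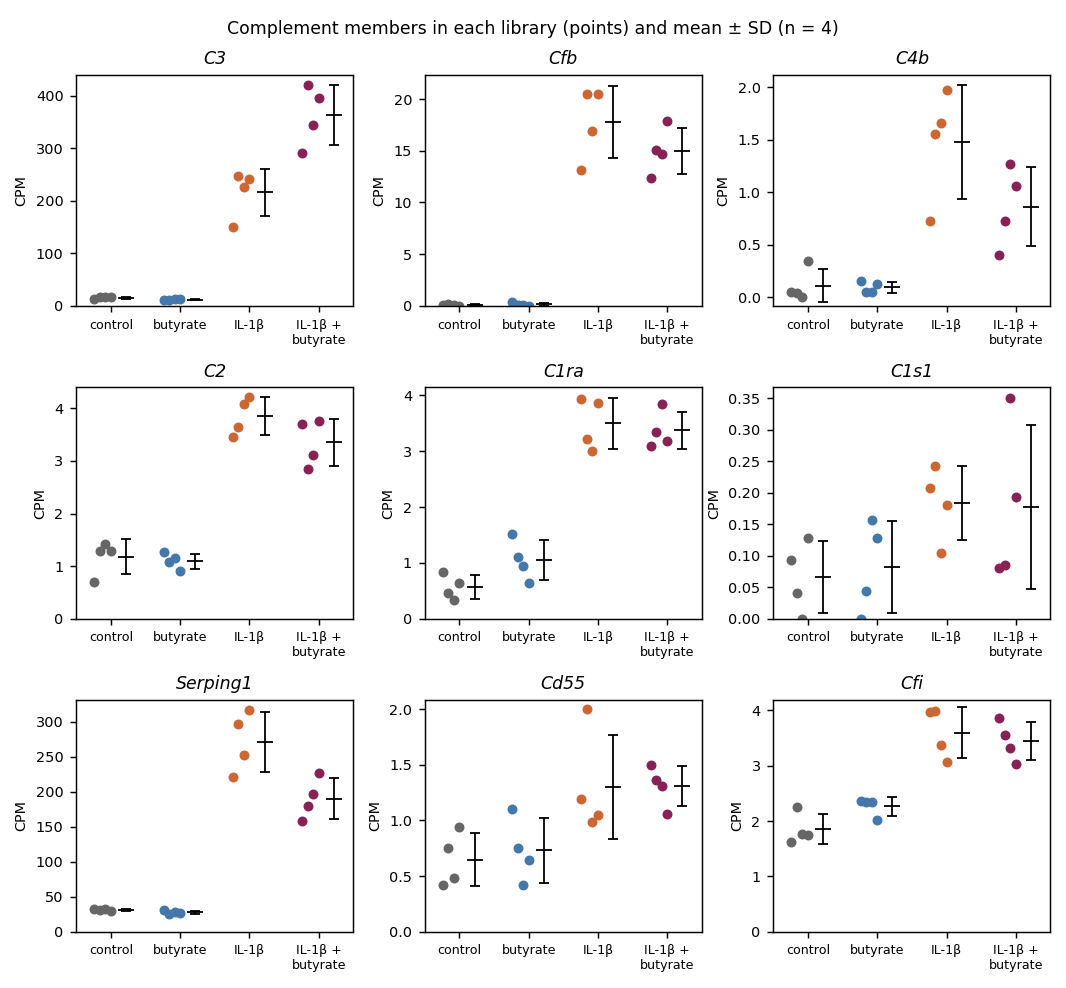
Each panel plots 1 member in CPM (linear axes of their own scale), with a point for each library in the 4 conditions and the mean ± SD (n = 4) beside the points. *C3*, *Cfb*, *C2*, *C1ra* and *Serping1* are low in control and butyrate islets and high in both conditions with IL-1β, and *C3* is highest with both agents (363 ± 57 CPM).

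Promoter sequences from RefSeq (GRCm38.p6), from 250 bases before to 50 after the annotated start, were at hand for 4 of the 9 members. They are shown for *C3*, *C1ra* and *Cd55*, the tested members among these 4. *Cd55* missed the threshold with a log2 fold change (0.98) about that of the called *Cfi* (0.95), so its sequence does not stand for an unchanged gene. Capitals mark matches, on either strand, to TATAAA, to TTGCNNAA (the letters of a C/EBP type site), to TTCNNNGAA (a STAT type site), to GAAANNGAA (an IRF type site) or to the κB consensus. The coordinates are chr17:57228087-57228386 for *C3* (minus strand), chr6:124512371-124512670 for *C1ra* (plus strand) and chr1:130462695-130462994 for *Cd55* (minus strand), each written 5′ to 3′ along the gene.
C3: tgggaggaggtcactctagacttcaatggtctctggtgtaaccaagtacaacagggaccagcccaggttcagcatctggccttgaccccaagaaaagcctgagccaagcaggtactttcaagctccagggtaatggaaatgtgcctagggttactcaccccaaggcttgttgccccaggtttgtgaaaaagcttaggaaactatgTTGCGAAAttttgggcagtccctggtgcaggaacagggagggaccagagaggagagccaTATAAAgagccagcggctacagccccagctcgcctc
C1ra: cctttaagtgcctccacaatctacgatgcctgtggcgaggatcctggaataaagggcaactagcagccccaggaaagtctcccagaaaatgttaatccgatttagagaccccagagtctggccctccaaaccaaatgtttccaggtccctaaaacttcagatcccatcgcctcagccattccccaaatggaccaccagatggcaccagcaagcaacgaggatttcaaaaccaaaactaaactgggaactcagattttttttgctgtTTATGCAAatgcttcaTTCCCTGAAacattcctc
Cd55: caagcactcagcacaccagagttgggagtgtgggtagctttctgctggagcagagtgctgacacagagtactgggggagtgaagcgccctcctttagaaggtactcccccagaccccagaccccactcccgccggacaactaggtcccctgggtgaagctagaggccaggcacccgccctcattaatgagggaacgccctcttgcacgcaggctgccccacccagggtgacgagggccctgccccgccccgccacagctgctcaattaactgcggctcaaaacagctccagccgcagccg
In *C3*, TTGCGAAA lay 45 to 38 bases before the RefSeq start and TATAAA 15 to 20 bases after it. In *C1ra*, TTATGCAA, a TTGCNNAA match on the other strand, began 17 bases after the RefSeq start and TTCCCTGAA 33 bases after it. The *C1ra* gene as placed above begins further upstream, at 124512405, so most of this window lies inside it. Of the windows for the untested *C1s1*, the RefSeq entry that starts further upstream held TTAGGCAA, a TTGCNNAA match on the other strand, 242 to 235 bases before its start. The *Cd55* window held none of the 5 motifs and was richer in G and C (63.3%, against 53.3% for *C3* and 47.0% for *C1ra*). Of the 32851 promoters of the same length, 13.6% held TATAAA, 10.8% TTGCNNAA, 8.3% TTCNNNGAA, 8.56% GAAANNGAA and 4.51% the κB consensus. A match describes the letters in this window and is not evidence of binding.

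Levels were compared between members per kilobase of exon (CPM divided by the union of exons in kilobases). In control islets the order of mean levels was *Serping1* (13.4 ± 0.65), *C3* (3.08 ± 0.41), *Cfi* (0.834 ± 0.12), *C2* (0.304 ± 0.084), *C1ra* (0.191 ± 0.074) and *Cd55* (0.133 ± 0.050), with *Cfb*, *C1s1* and *C4b* below 0.1 on average. The ranges of *Serping1*, *C3* and *Cfi* were apart from one another, whereas those of *C2*, *C1ra* and *Cd55* overlapped between neighbours. With IL-1β, *Serping1* reached 117 ± 18 and *C3* 42.1 ± 8.8, still without overlap, and *Cfb* came next at 6.29 ± 1.2. *Cfi* (1.62 ± 0.21), *C1ra* (1.17 ± 0.16) and *C2* (0.996 ± 0.093) followed, and *C2* overlapped *C1ra* in range. With all *Cfb* counts divided by only the 579 exon bases that the read-through gene does not share, the value was 30.7 ± 6.1. That value would hold only if no read in the shared bases was counted, which was not tested. The place of *Cfb* in this order is therefore uncertain. With both agents, *Serping1* (81.8 ± 12, range 68.0 to 97.7) and *C3* (70.6 ± 11, range 56.7 to 81.6) overlapped. Ranked per kilobase among 18558 tested genes with a known length, *C3* went from position 8666 in control to 785 with IL-1β and 362 with both agents, and *Serping1* from 3103 to 180 and 291. *Cfb* stood at position 18494 in control and 6041 with IL-1β. Over the longest transcript in place of all exons, *C2* came to 1.46 with IL-1β and *Serping1* to 153.

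**Figure D2:**
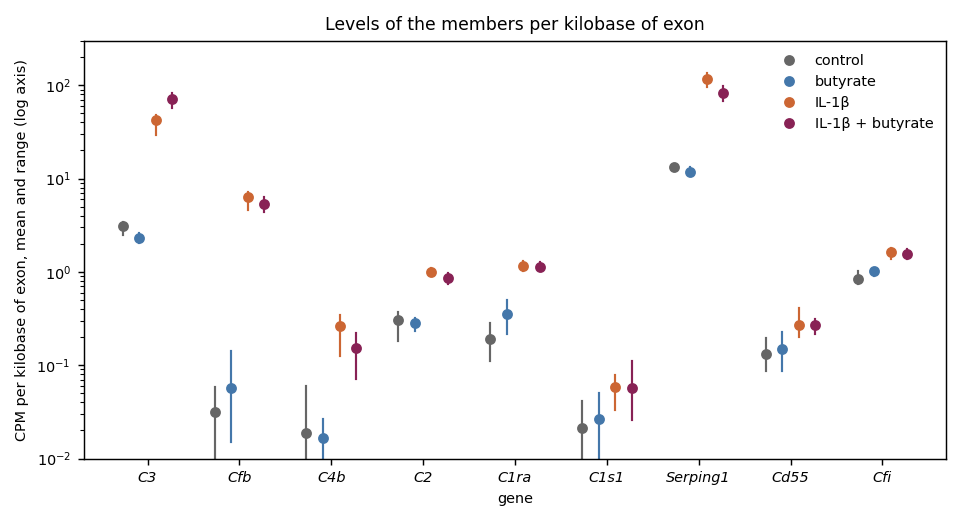
Levels of the 9 members in CPM per kilobase of exon on a log axis, with the mean of 4 libraries as a point and the range as a line for each condition; lines that reach the lower edge include a library below 0.01. The plot shows *Serping1* and *C3* above the other members in all conditions, and *Cfb* near the bottom without IL-1β and next after *C3* with it.

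The second question was what butyrate did to these transcripts in the presence of IL-1β. *C3* rose further, *Serping1* fell, and the other 6 tested members were not called. Thus 1 of 8 was called higher and 1 of 8 lower, where 8.41% and 11.1% of all tested genes were, and the median log2 fold change of the members was -0.14 against 0.01 over all genes tested.

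*C3* was at 292, 420, 345 and 396 CPM with both agents, and each of these libraries lay above the highest IL-1β library (248 CPM). The rise was 1.68-fold (log2 fold change 0.75, SE 0.15, 95% confidence interval 0.41 to 1.08, edgeR FDR = 0.0024). Fitted on the 8 libraries of these conditions alone, it had the same size (0.75) and an edgeR FDR of 0.03. Among the cell type markers in the same libraries, the 3 delta cell markers summed to 1740 to 2220 CPM with IL-1β and 2620 to 3180 with both agents (1 called higher), and of the 12 macrophage markers 7 were called lower and 0 higher. The duct markers summed to 375 to 440 CPM with IL-1β and 325 to 363 with both agents (1 called lower, 0 higher). Of 5 alpha cell markers 1 was called higher and 2 lower, and of 8 beta cell markers 0 higher and 2 lower. Their part in the *C3* values was not tested.

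*Serping1* was at 158, 180, 196 and 227 CPM with both agents, against 221, 296, 252 and 316 with IL-1β. The highest library of the first condition lay above the lowest of the second, so the groups overlapped. The log2 fold change was -0.51 (SE 0.11, 95% confidence interval -0.76 to -0.27, edgeR FDR = 0.0037), and the level with both agents was still 6.13-fold that of control. The macrophage sum without C1q was lower in the same comparison (72.3 to 122 CPM with IL-1β, 32.7 to 68.4 with both agents), and its part in the fall of *Serping1* was not tested. This call did not pass without IL-1β replicate 2 (edgeR FDR = 0.015), without replicate 2 of both agents (edgeR FDR = 0.011) or in the fit of the 8 libraries alone (edgeR FDR = 0.037).

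For the members that were not called, the intervals bound what butyrate may have changed. *Cfb* was at 12.4, 15.1, 14.7 and 17.9 CPM with both agents (log2 fold change -0.26, 95% confidence interval -0.57 to 0.06, edgeR FDR = 0.21). *C4b* had 10, 17, 29 and 22 counts, a log2 fold change of -0.81 with a wide interval from -1.57 to -0.05 (edgeR FDR = 0.099). The remaining components and proteases lay closer to 0 or could not be judged. *C2* was at 3.7, 2.84, 3.11 and 3.76 CPM (log2 fold change -0.21, 95% confidence interval -0.52 to 0.11, edgeR FDR = 0.33). *C1ra* was at 3.09, 3.35, 3.85 and 3.18 CPM (log2 fold change -0.06, interval -0.42 to 0.30, edgeR FDR = 0.83). *C1s1* held 2, 2, 8 and 4 counts, the same total of 16 as with IL-1β alone. Both remaining inhibitors lay near their IL-1β level, *Cfi* with a log2 fold change of -0.05 (interval -0.33 to 0.23, edgeR FDR = 0.81) and *Cd55* with 0.02 (interval -0.53 to 0.56, edgeR FDR = 0.97).

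The third question was what butyrate did alone. None of the 8 tested members was called against control by edgeR or by DESeq2, where edgeR called 8.53% of all tested genes higher and 11.4% lower. An unadjusted edgeR p under 0.05 was found for 1 member (*C1ra*) and for 7175 of all 18587 tested genes. *C3* was at 10.6, 11.2, 12.3 and 13.4 CPM with butyrate, and the control library with the least (12.7 CPM) lay within this range. Its log2 fold change was -0.41 (SE 0.22, 95% confidence interval -0.88 to 0.06, edgeR FDR = 0.18). Fitted on the butyrate and control libraries alone, *C3* was called lower (-0.40, edgeR FDR = 0.004). It was also called lower with the replicate number as a block (edgeR FDR = 0.00029). *C1ra* had 30, 25, 18 and 15 counts with butyrate and a log2 fold change of 0.87 (SE 0.28, 95% confidence interval 0.29 to 1.44, edgeR FDR = 0.019), and it was called higher without control replicate 1 (edgeR FDR = 0.007) or without butyrate replicate 4 (edgeR FDR = 0.0052). *Serping1* was at 30.7, 25.9, 27.9 and 26.1 CPM with a log2 fold change of -0.17 (interval -0.46 to 0.13, edgeR FDR = 0.41). *Cfi* held 2.36, 2.35, 2.35 and 2.02 CPM (log2 fold change 0.29, interval -0.04 to 0.61, edgeR FDR = 0.19), and *C2* held 1.26, 1.07, 1.15 and 0.903 CPM (-0.12, interval -0.56 to 0.33, edgeR FDR = 0.74). *Cd55* had 22, 17, 8 and 15 counts (0.16, interval -0.51 to 0.83, edgeR FDR = 0.77). *Cfb* (8, 2, 2 and 1 counts), *C4b* (3, 1, 1 and 3) and *C1s1* (0, 1, 3 and 3) were too scarce without IL-1β for a change to be detectable at this depth.

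**Figure D3:**
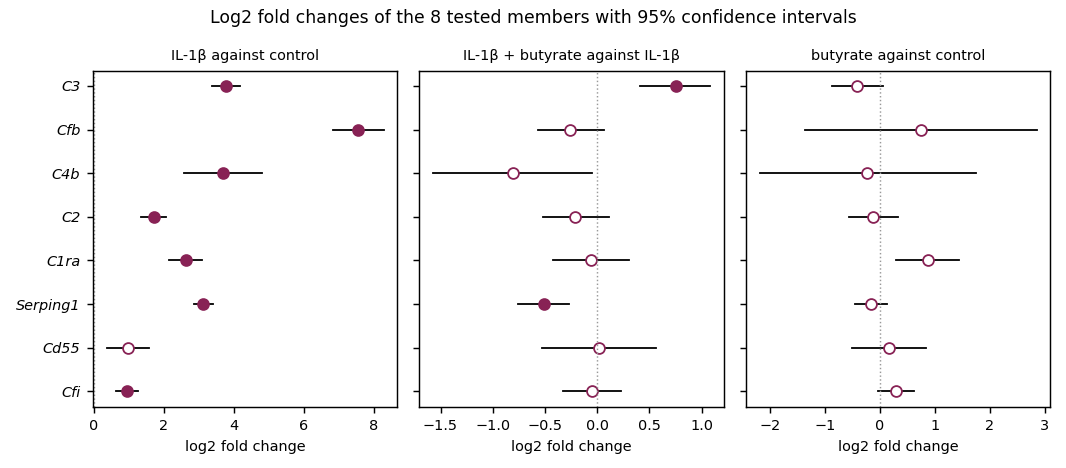
Log2 fold changes (points) with 95% confidence intervals (lines) of the 8 tested members in 3 comparisons, filled where the edgeR FDR was under 0.01; each panel has its own scale. All points lie above 0 for IL-1β against control, and *C3* (0.75) and *Serping1* (-0.51) are the filled points when butyrate was added to IL-1β.

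Whether the butyrate effect itself differed with and without IL-1β was tested as an interaction. For *C3* the effect was 0.75 with IL-1β and -0.41 without it, a difference of 1.16 on the log2 scale (SE 0.26, 95% confidence interval 0.59 to 1.73, unadjusted p = 0.00081, edgeR FDR = 0.14). By edgeR 0 of 8 members were called, where 0.0968% of all tested genes were. An unadjusted p under 0.05 was found for 2 members (*C3* and *C1ra*) and for 1362 of all 18587 tested genes. DESeq2 called *C3* (difference 1.15, adjusted p = 0.00094) and no other member. With the replicate number as a block, edgeR called *C3* as well (FDR = 1.9e-08), though no source states that the numbers pair the libraries. For *C1ra* the difference was -0.93 (SE 0.33, 95% confidence interval -1.61 to -0.25, edgeR FDR = 0.40), and for *Serping1* it was -0.35 (interval -0.73 to 0.04, edgeR FDR = 0.74).

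Islets exposed to both agents were also set against those without IL-1β. Against control, 8 of 8 tested members were called higher, where 15.8% of all tested genes were. *C3* stood 22.9-fold above control (log2 fold change 4.52, SE 0.19, edgeR FDR = 4e-10), *Cfb* had a log2 fold change of 7.30, *C4b* of 2.88, *C1ra* of 2.55 and *C2* of 1.5. Here *Cd55*, at 1.5, 1.36, 1.31 and 1.06 CPM with both agents, passed the threshold (log2 fold change 1.00, SE 0.29, edgeR FDR = 0.0071), but its FDR was 0.011 to 0.03 in 6 of the fits that left out 1 library. Against butyrate alone, 7 of 8 were called higher, where 9.92% of all tested genes were. *C3* rose 30.5-fold in that comparison (log2 fold change 4.93, SE 0.20, edgeR FDR = 4.7e-10) and *Serping1* 6.88-fold, while *Cfi* rose 1.52-fold (edgeR FDR = 0.0025, and 0.014 without replicate 1 of both agents or without butyrate replicate 4). *Cd55* was not called (log2 fold change 0.84, edgeR FDR = 0.037). These comparisons share libraries with those above and are not independent of them. The limit set by the filter for *Cfb* and *C4b* holds for these counts too.

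Across the 16 libraries the log2 CPM of the tested members followed one another closely, with Pearson correlations of *C3* from 0.751 (*Cd55*) to 0.969 (*Cfb*). With the mean of each condition removed, the correlations of *C3* ran from -0.526 (*C1ra*) to 0.525 (*Serping1*), so the common course lay mostly between conditions and not between experiments. Among 12687 genes with an average log2 CPM of at least 1, the genes most like *C3* over the 16 libraries were *Tmem176a* (r = 0.994), *Serpina10* (0.993), *Odc1*, which encodes ornithine decarboxylase of polyamine synthesis, *Lhfpl2* and *Tnip1*, an inhibitor of NF-κB signalling (0.991 each). *Tmem176a* averaged 99.4 CPM in control, 372 with IL-1β, 456 with both agents and 92.6 with butyrate. These genes share the course over conditions by choice, and no test was made.

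The rest of the complement system was taken from a list of 49 other genes, of which 31 passed the filter on low counts. With IL-1β, 12 of these 31 rose and 2 fell (median log2 fold change 0.29), beside 11.2% of all tested genes called higher and 6.59% lower. With butyrate added to IL-1β, 3 of the 31 were called higher and 6 lower (8.41% and 11.1% of all tested genes), and with butyrate alone 3 higher and 3 lower (8.53% and 11.4%). The shares called higher with butyrate in either setting, and that called lower with butyrate alone, were near those of all tested genes and are no result about the list.

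Among the starters of the classical route, *C1qb* and *C1qc*, chains of C1q that macrophages make, rose from 3.28 ± 0.68 to 20.5 ± 4.6 CPM and from 2.83 ± 0.39 to 20.9 ± 4.9 CPM with IL-1β (log2 fold changes 2.65 and 2.89, edgeR FDR = 4.6e-06 and 1.3e-06). They fell with added butyrate, by 0.96 and 0.98 on the log2 scale (edgeR FDR = 0.0059 and 0.0035), but the call of *C1qb* was lost without any of IL-1β replicates 2, 3 and 4 or of replicates 1 and 2 of both agents, and that of *C1qc* without IL-1β replicate 4 or replicate 2 of both agents. *C1qa*, the third chain, had a different course, with 111 ± 11 CPM in control, 79.7 ± 12 with IL-1β, 77.6 ± 11 with butyrate and 51.2 ± 5.5 with both, and it fell in each of these comparisons (edgeR FDR = 0.0076 for IL-1β and 0.0045 for butyrate). The IL-1β call of *C1qa* was lost in 11 of 24 alternative fits, among them those without control replicate 1, 2 or 3 or IL-1β replicate 2, 3 or 4, and the butyrate call in 5 of 24 (without control replicate 1 or 2 or butyrate replicate 2, 3 or 4). Its counts (935 to 2788 per library) were far above those of its partners. *C1rl*, a C1r-like protease, rose with IL-1β from 1.55 ± 0.34 to 6.19 ± 0.76 CPM (edgeR FDR = 6.1e-11), rose again with added butyrate to 8.72 ± 0.74 (edgeR FDR = 0.0024, not called without IL-1β replicate 1 or replicate 3 of both agents) and rose with butyrate alone to 3.51 ± 0.7 (edgeR FDR = 5e-06). It was thus called higher with butyrate both with and without IL-1β.

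Of the 9 lectin route genes, 3 passed the filter and none was called in these 3 comparisons by edgeR. An unadjusted p under 0.05 was found for 2, 1 and 2 of them, and for 6675, 7409 and 7175 of all 18587 tested genes. Properdin, encoded by *Cfp* of the alternative route, was at 5.01 ± 0.48 CPM in control and 5.45 ± 0.45 with IL-1β and was not called, and *Cfd*, encoding factor D, did not pass the filter, with at most 8 counts in a library. In the membrane attack group of 6 genes, 4 were tested. *C8b* fell with IL-1β from 35.2 ± 2.5 to 17.5 ± 1.8 CPM (log2 fold change -1.01, edgeR FDR = 6.1e-11) and rose slightly with added butyrate to 21.3 ± 2.3 (edgeR FDR = 0.0061). This last call was lost in 7 of 24 alternative fits, those without any of IL-1β replicates 2, 3 and 4 or of replicates 1, 2 and 3 of both agents, and that of the 2 conditions alone.

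The other inhibitors were mixed. *Clu*, encoding clusterin, which keeps the attack complex soluble, rose from 104 ± 8.5 to 174 ± 22 CPM with IL-1β (log2 fold change 0.75, edgeR FDR = 3e-07) and to 235 ± 15 with both agents (0.43 above IL-1β, edgeR FDR = 0.00023). *C4bp* was scarce and fell when butyrate was added to IL-1β (0.578 ± 0.082 to 0.175 ± 0.079 CPM, edgeR FDR = 0.0012). It held 10 to 23 counts in control libraries, 10 to 19 with IL-1β, 4 to 7 with butyrate and 2 to 6 with both agents. *C4bp* thus passed the filter on low counts only through libraries without butyrate, so the direction of its change was largely fixed by the filter. Its part in the counts of other complement genes called lower with butyrate is no evidence of a fall. Among the membrane inhibitors, *Cr1l*, encoding Crry, which in rodents protects cells as CD46 and CD55 do, rose with IL-1β from 49.3 ± 1.0 to 60.1 ± 0.65 CPM (edgeR FDR = 9.6e-06) and fell with added butyrate to 43.6 ± 1.9 (edgeR FDR = 7.2e-09) and with butyrate alone to 34.9 ± 0.98 (edgeR FDR = 3.1e-09). *Susd4* rose with IL-1β (log2 fold change 0.42, edgeR FDR = 1.5e-05). *Cd59a*, which blocks the last step of pore assembly, was at 45.9 ± 3.3 CPM in control and 48.3 ± 4.5 with IL-1β (log2 fold change 0.07, interval -0.06 to 0.20, edgeR FDR = 0.45).

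Of 10 receptors and binding proteins, 8 were tested and 5 rose with IL-1β: *C3ar1* and *C5ar1*, the receptors of the C3a and C5a fragments, and the integrin chains *Itgam*, *Itgax* and *Itgb2* of the receptors for cleaved C3. *C3ar1* went from 1.72 ± 0.48 to 6.72 ± 1.2 CPM (log2 fold change 1.98, edgeR FDR = 6.9e-07) and *Itgax* from 1.26 ± 0.38 to 8.27 ± 2.6 CPM (2.73, edgeR FDR = 3.8e-06). *Itgam* held 1 to 5 counts in control libraries and passed the filter only through libraries with IL-1β. Of its 5024 exon bases, 3450 lie also in the gene *Gm49368* on the same strand, and the part of that overlap was not tested. With butyrate added, *Itgb2* fell (log2 fold change -0.76, edgeR FDR = 0.0021), a call lost without IL-1β replicate 4 or without replicate 1 of both agents. These 5 receptor genes, like *C1qb* and *C1qc*, are transcribed mainly by myeloid cells, and they rose in the libraries with the higher macrophage sum given above, whose part in it was not tested. *C1qa* did not follow them.

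**Figure D4:**
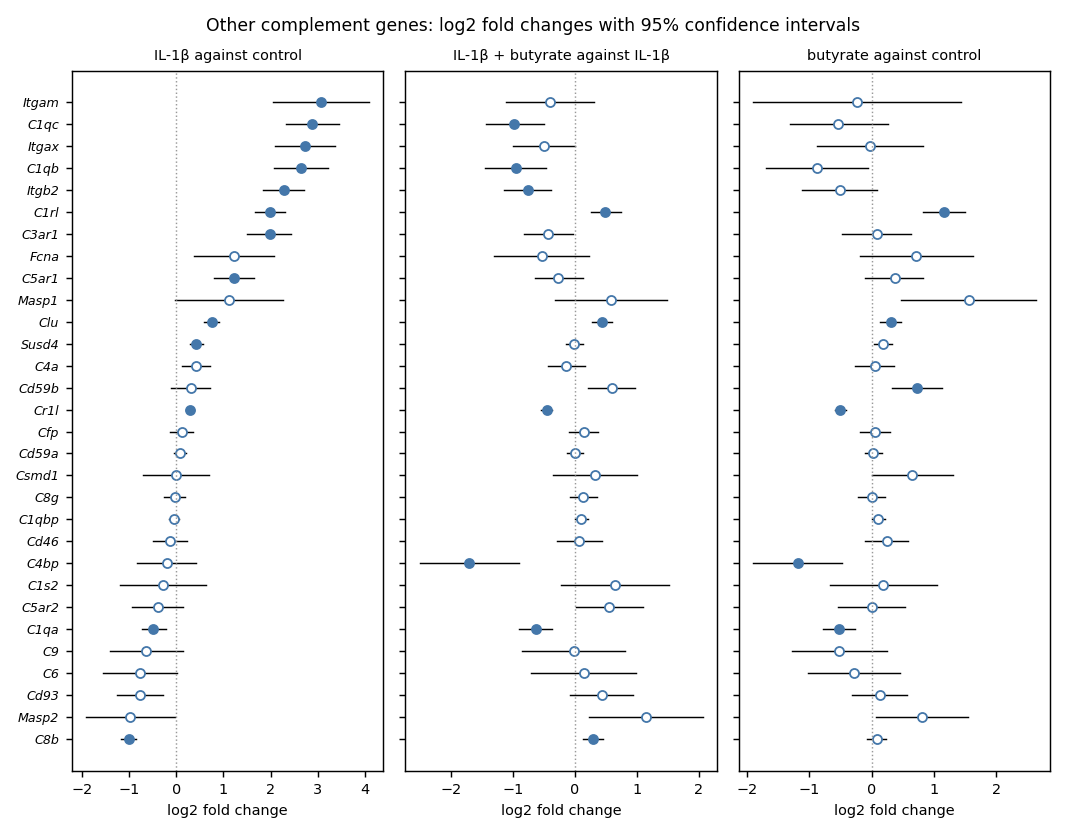
Log2 fold changes (points) with 95% confidence intervals (lines) of 30 of the 31 tested genes of the wider complement list in 3 comparisons, ordered by the change with IL-1β and filled where the edgeR FDR was under 0.01. *Itgam*, *C1qc*, *Itgax* and *C1qb* lead in the IL-1β panel, and *C1rl* and *Clu* are filled to the right of 0 in all 3 panels.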

How the data were processed

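Total RNA (250 ng) of each library was prepared with a non-directional kit and sequenced as single-end reads. Per the submitters' processing notes the tools were bcl2fastq 2.19.1, FastQC 0.11.7, MultiQC 1.7, STAR 2.5.3a and DESeq2 with GRCm38. The deposited values are counts of reads per gene, whole numbers that the authors did not normalize, for 16 libraries, with 0 columns of other samples. Annotation release, strand setting, read filter and read length are not given in the sources used here, so reads from overlapping or antisense genes could not be told apart. Reads carried no molecular identifiers, so intervals on counts cover counting error only.

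Symbols, positions and exons came from GENCODE M21 (GRCm38), which held 52489 of the 52636 identifiers. In R 4.3.3, edgeR 4.0.16 kept 18587 genes (filterByExpr), scaled by TMM and fitted 1 robust quasi-likelihood model to the 4 conditions. P-values were adjusted over all 18587 genes (Benjamini-Hochberg, call under 0.01). Log2 CPM used a prior count of 2. Ratios of summed counts used exact binomial 95% intervals and TMM-scaled sizes. On simulated data for IL-1β against control with 18587 genes, edgeR recovered 66.2% of genes changed 1.5-fold, 77% of those changed 2-fold and 97.3% of those changed 4-fold, with 2 false among 164 calls. The changed genes (65, 61 and 74) were drawn only from those above a floor of mean CPM, so these rates do not hold for scarcer genes. Counts were drawn independently for each library with the spread that edgeR had estimated, and no other gene was changed. The rates thus describe a setting that matches the model, and not the deposited data. DESeq2 1.42.0, other scalings and filters, libraries left out and summed neighbouring genes were tried as alternatives. All 9 members were named, with the wider list by count and tested genes only, of which 1 is not reported here by name. Members, lists and tests were chosen with earlier results of these data known. The replicate numbers were not used as a block in the main fit.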

Additional observations from a re-analysis of the deposited data

Results flagged for a closer look

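Each member was examined for a library apart from the other three of its condition (Dixon's ratio of gap to range, 36 sets of 4 libraries), and 2 stood apart, where chance flags about 1 set in 20. *C4b* in control replicate 4 was at 0.342 CPM (8 counts) against 0 to 0.0467 CPM in the other control libraries, with a gap of 0.864 of the range. *Cfi* in butyrate replicate 4 was at 2.02 CPM against 2.35 to 2.36 CPM in the other butyrate libraries, with a gap of 0.973 of the range. The interaction of butyrate with IL-1β was called for 0 of the 8 tested members by edgeR. DESeq2 called 1, as did edgeR with the replicate number as a block. An unadjusted edgeR p under 0.05 was found for 2 members and for 1362 of all 18587 tested genes.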

How the results depend on the processing

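Over 48 log2 fold changes of members and their alternatives (1140 values), 1101 kept direction and side of the threshold, 13 lost the call, 9 gained it and 17 changed sign, the last all among values not called. The counts of members called for IL-1β against control (7 to 8), both agents against control (7 to 8) and both agents against butyrate (6 to 7) stayed within 1.5 times. For butyrate added to IL-1β the 2 calls became 1 with upper-quartile scaling and 0 in the fit of these 2 conditions alone, and 1 to 2 without 1 library. For butyrate against control the 0 calls became 1 (*C3*, lower) in the fit of these conditions alone, which tested 6 members, and 0 to 1 without 1 library (*C1ra*, without control replicate 1 or butyrate replicate 4). For the interaction DESeq2 called 1 member (*C3*) where edgeR called 0. Without 1 library, the other complement genes called were 5 to 10 for butyrate added to IL-1β (5 without IL-1β replicate 4) and 2 to 6 for butyrate alone (2 without control replicate 1 or butyrate replicate 3). The cause was not tested.

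With summed neighbouring genes, the butyrate values against control changed sign for *C4b* (0.04) and *Cfb* (-0.03), and with DESeq2 that of *Cd55* for butyrate added to IL-1β did (-0.00047). Without 1 library, log2 fold changes with a change of sign ranged, for butyrate against control, from -0.20 to 1.26 (*Cfb*), -0.60 to 1.48 (*C4b*) and -0.09 to 0.39 (*Cd55*). For butyrate added to IL-1β they ranged from -0.10 to 0.29 (*Cd55*) and -0.15 to 0.00018 (*Cfi*), and for the interaction from -0.19 to 0.08 (*C2*) and -0.37 to 0.13 (*Cd55*).

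No source says that replicate numbers pair the libraries. Deviations of same-numbered libraries correlated at 0.0535 to 0.397 (17 of 24 pairs over 0.1), and 14 of 16 libraries were closest on average to their own number. Those of libraries with different numbers correlated at -0.293 to 0.17 (median -0.0404). The sample numbers in the deposited library names also run replicate by replicate, each time through the 4 conditions. The paper describes 4 independent experiments and names a paired t-test or a Mann-Whitney test in its general statistics, with no design formula for the sequencing. These are hints, and none of them states which libraries are paired. With the replicate number as a block, 8 members were called for IL-1β against control (*Cd55* added), 1 for butyrate against control (*C3*, log2 fold change -0.41, edgeR FDR = 0.00029) and 1 for the interaction (*C3*, 1.17, edgeR FDR = 1.9e-08), and the numbers for the other 3 comparisons were those without it.

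Depth limits *C1s1*, *Cfb* and *C4b* without IL-1β, where a condition held 6 to 13 counts in all.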
